A study of Mus musculus with 6 samples.

Results

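The enzymes that turn glutamine and proline into citrulline and arginine were examined through 10 named genes, Ass1, Asl, Cps1, Otc, Arg1, Arg2, Oat, Nags, Aldh18a1 and Glul. They were chosen by gene symbol, and all 10 were found among the 18159 genes of the expression table. Poly(A) RNA was sequenced from mouse intestinal epithelial cells in 6 libraries, 3 labelled Git2-knockout and 3 from wild-type (WT) animals. The series' design text describes the material as enteroids, which are epithelial organoids, from mice aged 12 days. The sample titles say intestinal epithelial cells, and the genotype field says knockdown where the titles say knockout. Neither the strain, nor the altered part of Git2, nor whether each library stands for its own animal or culture is stated. The p-values therefore cover the spread among these 6 libraries, and that spread may be technical.

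The intestine of a suckling mammal makes much of its own arginine, an amino acid that milk supplies sparingly. Glutamate, from glutamine, and proline are both turned into pyrroline-5-carboxylate, then into ornithine, citrulline, argininosuccinate and arginine, partly in mitochondria and partly in the cytosol. In rodents and pigs the last steps move from the gut to the kidney around weaning, when arginases, which break arginine down, rise in the gut.

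The libraries labelled Git2-knockout held 16284414 to 16837158 estimated reads, and the WT libraries 18753649 to 19106581. Git2, a scaffold protein of Arf GTPase signalling, was measured at 17.4, 15.5 and 16.8 reads per 1000000 reads of a library (CPM) in the libraries labelled Git2-knockout, against 22.2, 23.7 and 22.7 CPM in WT. The transcript was thus lower but present in every library labelled Git2-knockout, at 72.3% of WT (95% interval 65.0% to 80.4%), and does not by itself check the genotype. Of 13558 genes tested with edgeR's quasi-likelihood test, 57.0% passed a Benjamini-Hochberg adjusted p of 0.05, 29.6% upward and 27.4% downward. The median absolute log2 fold change of the genes that passed was 0.36. Fold changes also rose with transcript length across genes (Pearson r = 0.39 over tested genes, which are not independent replicates), a trend that bears on genes as unequal in length as Cps1 and Ass1. Epithelial markers fell in 6 of 8 genes (median log2 fold change -0.21). The other 2, the general epithelial markers Epcam (0.01) and Cdh1 (0.09), did not pass and did not fall. Fibroblast markers rose in 10 of 11 genes (median 1.27) and endothelial markers in 9 of 10 (median 1.12). Summed fibroblast markers were at 137 to 143 CPM in the libraries labelled Git2-knockout and 46.8 to 52.8 CPM in WT. In bulk RNA, fewer cells of a type and less RNA per cell cannot be told apart, and the part of these markers in the results below was not tested.

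Upstream sequences of 6 members (Glul, Ass1, Oat, Nags, Aldh18a1 and Otc) were in RefSeq's promoter table for GRCm38.p6. The 120 bases before the start are shown for the 3 members that fell and for Oat, the most abundant one, so that their base composition and motif content can be compared. Capitals mark the E-box CACGTG, the GC box GGGCGG and the CCAAT box CCAAT, each searched on both strands with no overlap between matches.
Ass1, chr2:31470150-31470269, plus strand: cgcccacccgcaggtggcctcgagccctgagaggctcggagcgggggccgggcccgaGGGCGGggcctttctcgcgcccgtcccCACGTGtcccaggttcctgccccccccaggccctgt
Nags, chr11:102145393-102145512, plus strand: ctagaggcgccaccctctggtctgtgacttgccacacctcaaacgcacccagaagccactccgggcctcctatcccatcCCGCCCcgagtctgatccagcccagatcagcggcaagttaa
Glul, chr1:153899809-153899928, plus strand: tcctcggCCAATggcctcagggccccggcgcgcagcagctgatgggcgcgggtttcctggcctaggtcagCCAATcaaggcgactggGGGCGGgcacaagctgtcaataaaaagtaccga
Oat, chr7:132576399-132576518, minus strand: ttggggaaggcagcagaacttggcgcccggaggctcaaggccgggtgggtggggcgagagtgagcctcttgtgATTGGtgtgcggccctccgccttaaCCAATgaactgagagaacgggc
The 3 members that fell all held a GC box in this window, as did Aldh18a1, which did not pass the test. Cps1, which rose, was not among the 6 members with a window, so motif content cannot be compared between directions. A GC box stood in 26.5% of all 32851 promoter windows of this length. The E-box was found in Ass1 and Aldh18a1 and in 3.66% of all windows. Glul and Oat held 2 CCAAT boxes each, and 21.3% of all windows held at least 1. The Otc window held none of these motifs and had the lowest GC content of the 6, at 44.2%, while Ass1 had the highest, at 78.3%.

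The genes from pyrroline-5-carboxylate to arginine were expressed in every library, and both arginases were close to absent. Levels of different genes are compared here in TPM, a share of 1000000 transcripts that allows for transcript length. Oat, the mitochondrial aminotransferase that makes ornithine, averaged 2554 ± 24.5 TPM in the libraries labelled Git2-knockout and 2226 ± 30.7 TPM in WT (SD, n = 3 each). It ranked 26th of 18159 genes in the libraries labelled Git2-knockout and 35th in WT. Cps1, which makes carbamoyl phosphate in mitochondria, ranked 116th and was at 1079 ± 74.4 TPM, against 894 ± 13.3 TPM and rank 176 in WT. Ass1, which joins citrulline to aspartate, was at 776 ± 13.7 TPM in the libraries labelled Git2-knockout and 851 ± 10.6 TPM in WT. Aldh18a1, the synthase of pyrroline-5-carboxylate, was at 579.7 ± 31.4 TPM in the libraries labelled Git2-knockout and 493 ± 2.0 TPM in WT. Asl, which releases arginine from argininosuccinate, followed at 386 ± 8.06 TPM in the libraries labelled Git2-knockout and 360.5 ± 12.0 TPM in WT.

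Lower on the same scale stood Glul, the glutamine synthetase, at 179 ± 3.28 TPM in the libraries labelled Git2-knockout and 183 ± 5.25 TPM in WT. Otc, which makes citrulline and was the scarcest enzyme of the main chain, was at 67.0 ± 2.47 TPM in the libraries labelled Git2-knockout and 61.2 ± 2.46 TPM in WT. Nags, which makes the N-acetylglutamate that Cps1 needs for activity, was at 47.3 ± 0.222 TPM in the libraries labelled Git2-knockout and 53.5 ± 1.39 TPM in WT. The order of the 10 members by TPM was the same in both groups. Neighbours in that order had separate ranges over the 3 libraries, except Arg1 and Arg2 in the libraries labelled Git2-knockout. Together the members made up 0.557%, 0.569% and 0.576% of all TPM in the libraries labelled Git2-knockout, against 0.516%, 0.511% and 0.510% in WT. On the log2(TPM + 1) scale the median log2 fold change of all genes tested was also upward, at 0.14. The higher share is thus not a result about the members. In CPM they summed to 6942 to 7109 in the libraries labelled Git2-knockout and 6875 to 6891 in WT.

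**Figure D1:**
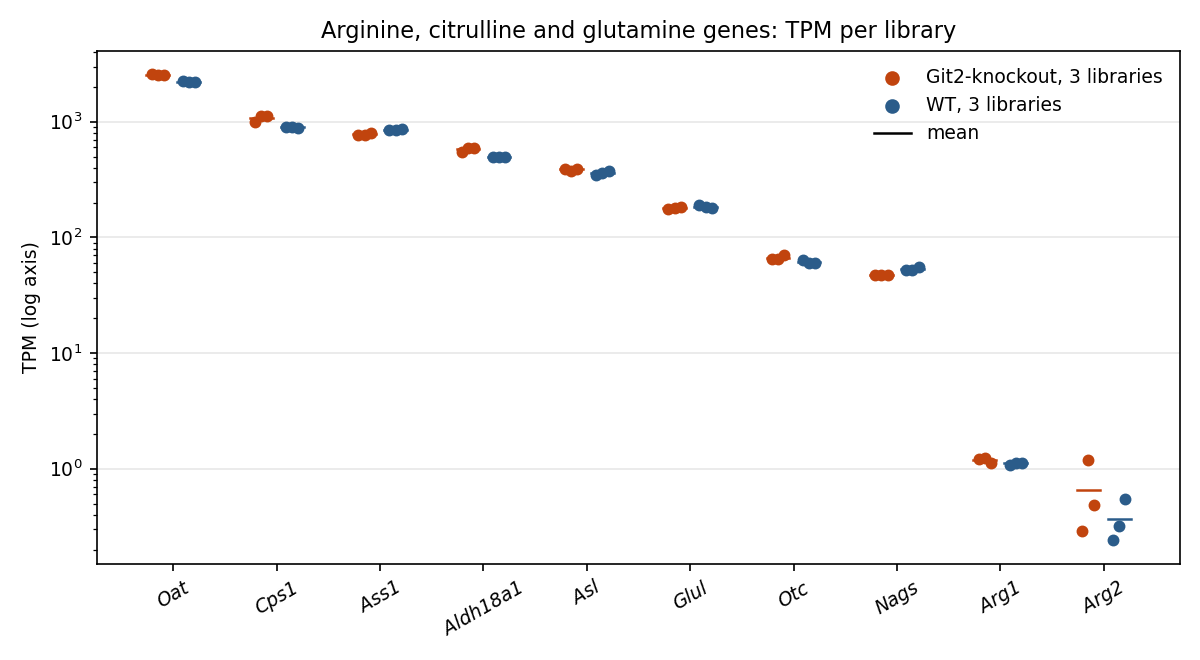
TPM on a log axis for each member in the 3 libraries labelled Git2-knockout (red, left of each pair) and the 3 WT libraries (blue), with points for libraries and lines for means. Members from Oat to Nags lie above 47 TPM in all 6 libraries, and Arg1 and Arg2 lie below 1.3 TPM.

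Arg1, the cytosolic arginase of liver and of some myeloid cells, had 13, 13 and 12 estimated reads in the libraries labelled Git2-knockout and 14, 15 and 15 in WT. Its level was 1.22, 1.23 and 1.13 TPM in the libraries labelled Git2-knockout, against 1.08, 1.13 and 1.12 TPM in WT. The groups overlapped, and with a 95% interval of the fold change from 62.8% to 147% of WT, a difference within those bounds was not detectable at this depth (edgeR adjusted p = 0.885). Arg2, the mitochondrial arginase, was at 0.29, 1.19 and 0.49 TPM in the libraries labelled Git2-knockout and at 0.24, 0.32 and 0.55 TPM in WT. It was removed by the filter on low counts, so 9 of the 10 members were tested. Without that filter its log2 fold change was 0.64 and did not pass (edgeR adjusted p = 0.415).

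Markers of liver and myeloid cells, in which these enzymes are also known, were uneven within each list. Of 8 liver genes tested 1 rose and 2 fell, beside 29.6% and 27.4% of all genes tested. The liver list's median log2 fold change was 0.07. It summed to 965 to 988 CPM in the libraries labelled Git2-knockout and 1242 to 1273 CPM in WT. Most of that sum was Pck1, which makes phosphoenolpyruvate for glucose synthesis, at 783 CPM in the libraries labelled Git2-knockout and 1031 CPM in WT. The other liver genes above 10 CPM in both groups were Ttr, Serpina1b, Fga and Fgb. Serpina1b was at 57.5 CPM in the libraries labelled Git2-knockout and 57.1 CPM in WT and did not pass, while Ttr, at 84.1 CPM in the libraries labelled Git2-knockout and 120 CPM in WT, fell. Albumin (Alb), the defining liver product, was at 0.119 CPM in the libraries labelled Git2-knockout and 0.0179 CPM in WT. Of 13 myeloid markers tested 4 rose and 1 fell, beside 29.6% and 27.4% of all genes tested. The myeloid list's median was 0.14 on the log2 scale. The single fall was Csf1r, the macrophage growth factor receptor, which was far above the other myeloid markers at 90.7 CPM in the libraries labelled Git2-knockout and 197 CPM in WT. The summed myeloid list, most of it Csf1r, ran from 149.9 to 150.4 CPM in the libraries labelled Git2-knockout and from 245 to 249 CPM in WT. The neutrophil genes S100a8, S100a9 and Ly6g were removed by the filter.

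Of the 9 members tested, Cps1 rose, Ass1, Nags and Glul fell, and 5 did not pass, which makes 4 of 9 beside 57.0% of all genes tested. Their median log2 fold change was -0.06, beside 0.02 over all genes tested. The groups' CPM values did not overlap for 5 of the 9, namely those 4 and Aldh18a1, beside 62.9% of all genes tested. All of these changes were smaller than the 0.36 median of the genes that passed. A share at or below the background is not a result about these genes as a set.

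Ass1 was at 551, 528 and 549 CPM in the libraries labelled Git2-knockout, against 653, 662 and 681 CPM in WT. Every library labelled Git2-knockout lay below every WT library. Its log2 fold change was -0.29 (SE 0.04, Benjamini-Hochberg adjusted p = 6.16e-06 by edgeR), which put Ass1 at 81.6% of WT (95% interval 77.2% to 86.2%). The fall also passed on the log2(TPM + 1) scale (-0.13), where the median of all genes tested lay at 0.14. It passed too with either the length trend (-0.14) or the GC trend (-0.16) removed. With both trends removed Ass1 lay at -0.03 and did not pass (edgeR adjusted p = 0.411).

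Nags was at 44.7, 42.2 and 42.9 CPM in the libraries labelled Git2-knockout, against 53.2, 53.9 and 56.7 CPM in WT. The groups were again separate, and Nags fell (log2 fold change -0.34, SE 0.05, Benjamini-Hochberg adjusted p = 4.59e-05 by edgeR). Nags had the highest transcript GC content of the members, at 60.1%, and with the GC trend removed its log2 fold change was -0.12 (edgeR adjusted p = 0.053). With both trends removed it was -0.06 (edgeR adjusted p = 0.24).

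Glul was at 219.9, 215 and 219.7 CPM in the libraries labelled Git2-knockout, against 255, 249 and 246 CPM in WT. Glul fell (log2 fold change -0.20, SE 0.04, Benjamini-Hochberg adjusted p = 4.77e-04 by edgeR), with no overlap between the groups. The call held with the length trend, the GC trend or both removed, where both gave -0.14. It was lost on the log2(TPM + 1) scale, at -0.03 (limma, adjusted p = 0.439), where the median of all genes lay at 0.14. In TPM the groups overlapped.

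Cps1 was at 2452, 2629 and 2696 CPM in the libraries labelled Git2-knockout, against 2415, 2403 and 2385 CPM in WT. Replicate 1 of the libraries labelled Git2-knockout lay close to WT and the other two lay higher. Cps1 rose by 0.11 on the log2 scale (SE 0.04, edgeR, Benjamini-Hochberg adjusted p = 0.021), to 108% of WT. Leaving out that replicate 1 gave a rise of 0.12 (edgeR adjusted p = 4.08e-04). The call ended without replicate 2 (0.09, edgeR adjusted p = 0.0793) or 3 (0.07, edgeR adjusted p = 0.257) of the libraries labelled Git2-knockout. It also ended without WT replicate 1 (0.11, edgeR adjusted p = 0.0609), 2 (0.11, edgeR adjusted p = 0.0845) or 3 (0.10, edgeR adjusted p = 0.0827), with the fold change about as large as with all libraries. Cps1 has the longest transcript of the members, 5437 bases as implied by the deposited values. With the length trend removed its direction turned, to -0.09 (edgeR adjusted p = 0.0047). Removal of both trends put Cps1 at -0.20 (edgeR adjusted p = 7.81e-07).

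The ornithine-making genes and the remaining steps of the chain did not pass the test. Aldh18a1 was at 848, 892 and 902 CPM in the libraries labelled Git2-knockout and 834, 843 and 843 CPM in WT, separate by a narrow margin (log2 fold change 0.07, 95% interval -0.01 to 0.15, edgeR adjusted p = 0.122). Oat was at 2470.4, 2310.4 and 2353 CPM in the libraries labelled Git2-knockout and 2330, 2309 and 2309 CPM in WT, with a log2 fold change of 0.04 (95% interval -0.04 to 0.11, edgeR adjusted p = 0.376). In both genes the libraries labelled Git2-knockout spread more widely than the WT libraries. Otc was at 68.6, 65.2 and 70.4 CPM in the libraries labelled Git2-knockout and 71.6, 68.1 and 67.7 CPM in WT, values that overlapped (log2 fold change -0.02, 95% interval -0.13 to 0.08, edgeR adjusted p = 0.717). Asl was at 286, 263 and 275 CPM in the libraries labelled Git2-knockout and 277, 287 and 299 CPM in WT (log2 fold change -0.07, 95% interval -0.16 to 0.02, edgeR adjusted p = 0.198). Asl lies on chromosome 5, as do Git2 and, among other genes taken up below, Cad, Nos3 and Slc7a1. Whether that position plays a part was not tested. When replicate 1 of the libraries labelled Git2-knockout was left out, Asl passed downward (-0.12, edgeR adjusted p = 0.00352) and Aldh18a1 upward (0.07, edgeR adjusted p = 0.0399). These 4 depended on the setting. On the log2(TPM + 1) scale all 4 passed upward, at 0.23 for Aldh18a1, 0.20 for Oat, 0.13 for Otc and 0.10 for Asl. The median of all genes tested lay at 0.14 on that scale, above the values of Otc and Asl. With the GC trend removed Otc, whose transcript has the lowest GC content of the members at 40.0%, passed downward at -0.45 and Aldh18a1 upward at 0.24. With the length trend removed Oat (0.12) and Asl (0.08) passed upward. When both trends were removed Asl (0.22) and Aldh18a1 (0.15) passed upward and Otc downward (-0.31), while Oat did not pass (0.04).

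**Figure D2:**
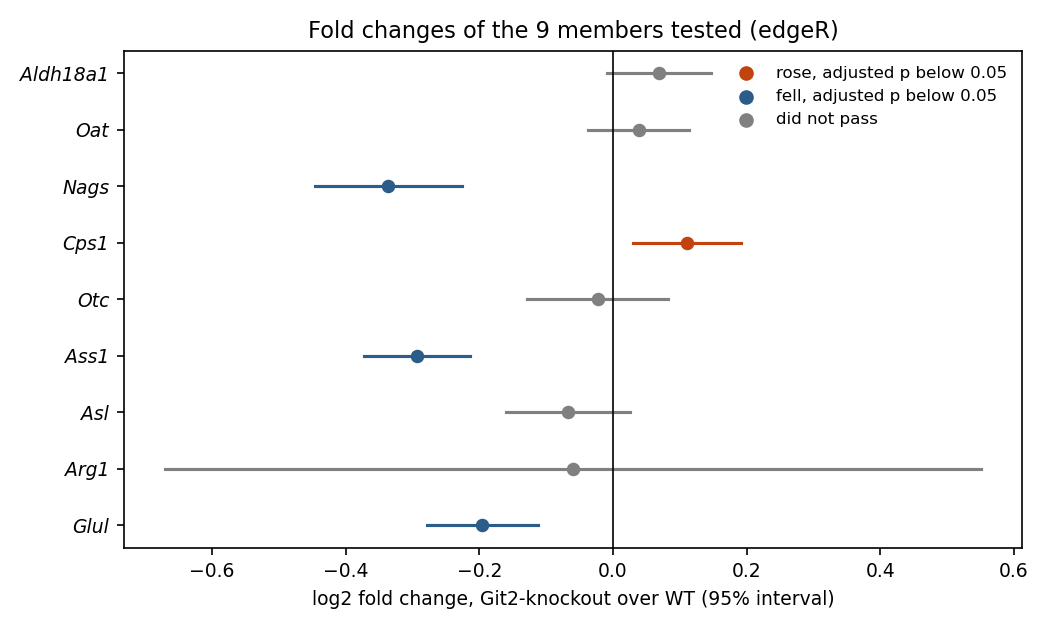
Log2 fold change, libraries labelled Git2-knockout over WT, with its 95% interval for the 9 members tested, in pathway order from top to bottom and coloured by the edgeR call. Nags, Ass1 and Glul lie below 0, Cps1 lies slightly above it, and the interval of Arg1 spans -0.67 to 0.55.

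**Figure D3:**
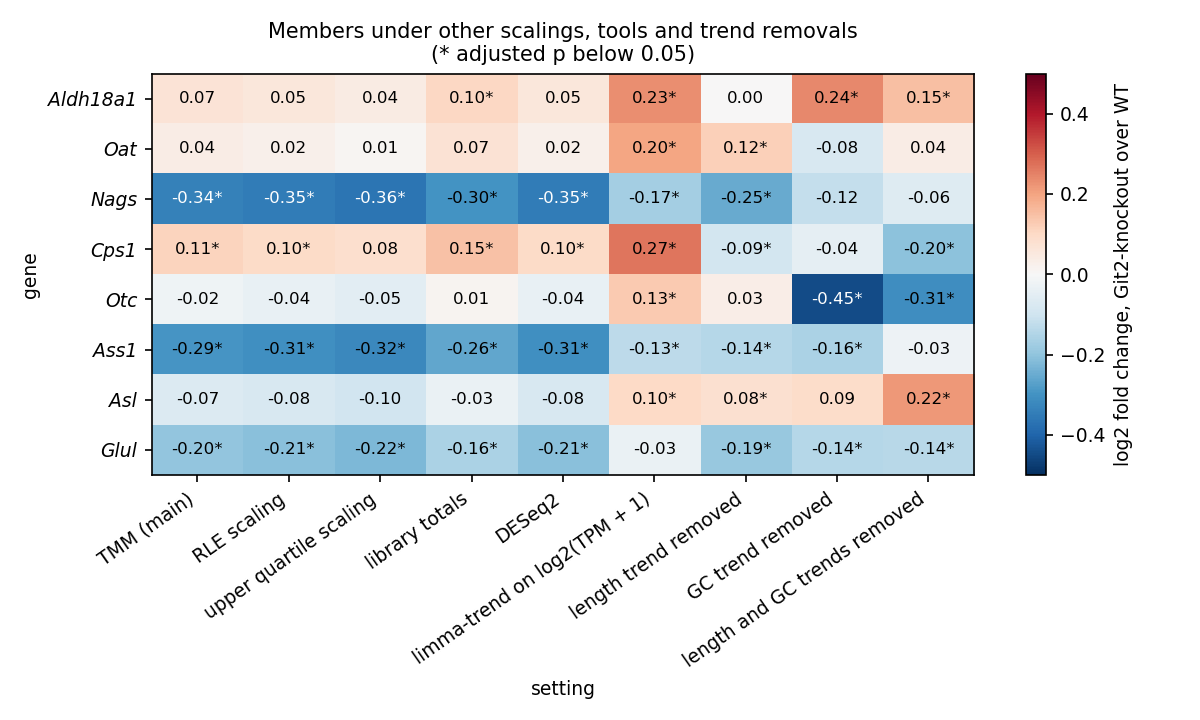
Log2 fold change of 8 members (rows) under 9 scalings, tools and trend removals (columns), with an asterisk where the adjusted p is below 0.05. Ass1, Nags and Glul stay below 0 in all 9 columns, Aldh18a1 stays above 0, and Cps1, Oat, Otc and Asl take both signs.

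Ratios of 2 genes within a library do not depend on how libraries are scaled, but they carry the length and GC trends. They were chosen after the members' values were known and are given as descriptions. The Asl to Ass1 ratio in TPM was 0.512, 0.490 and 0.492 in the libraries labelled Git2-knockout, against 0.414, 0.424 and 0.432 in WT, with no overlap. The transcripts of these enzymes, which act one after the other, are of like length (1610 and 1582 bases) and GC content (56.0% and 54.7%). With both trends removed Asl (0.22) still stood above Ass1 (-0.03) in log2 fold change. The Ass1 to Otc ratio was 11.7, 11.8 and 11.3 in the libraries labelled Git2-knockout, against 13.2, 14.1 and 14.5 in WT. With both trends removed the order of that pair turned, with Ass1 at -0.03 and Otc at -0.31. The Cps1 to Nags ratio was 20.9, 23.7 and 23.9 in the libraries labelled Git2-knockout, against 17.3, 17.0 and 16.0 in WT, and this order turned too, with Cps1 at -0.20 and Nags at -0.06. The Cps1 to Otc ratio averaged 16.1 ± 0.935 in the libraries labelled Git2-knockout and 14.6 ± 0.391 in WT. The Oat to Aldh18a1 ratio overlapped between the groups, at 4.42 ± 0.289 in the libraries labelled Git2-knockout and 4.52 ± 0.0517 in WT (SD, n = 3 each).

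**Figure D4:**
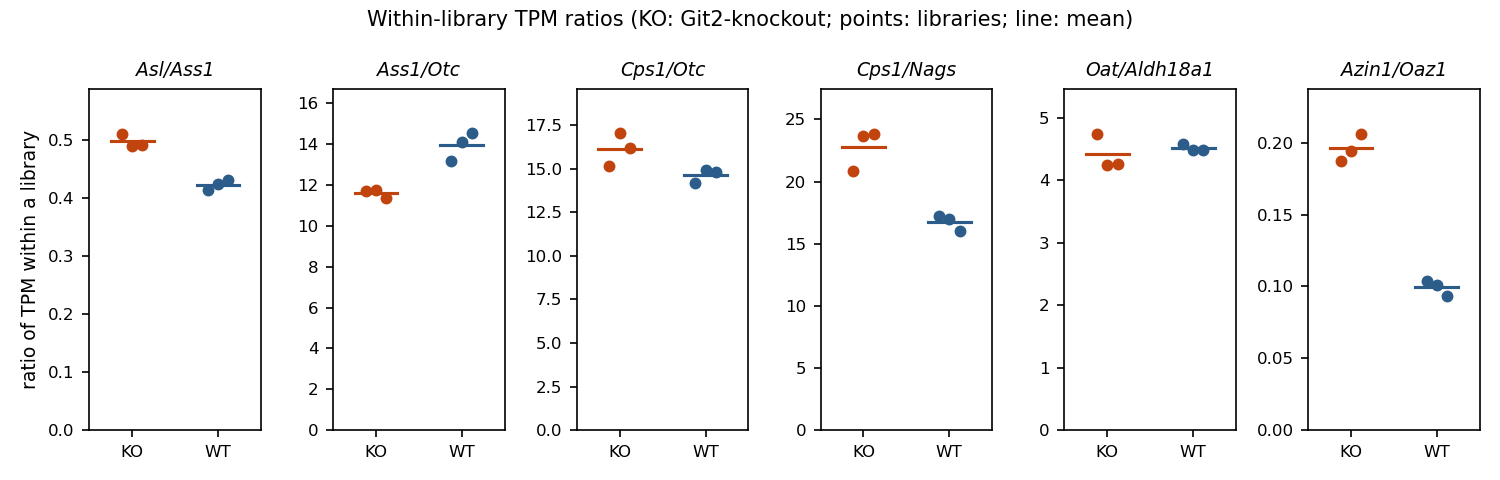
Ratio of the TPM of 2 genes within each library, with libraries labelled Git2-knockout (KO, red) left of WT (blue), points for libraries and lines for means, each axis from 0. The Azin1 to Oaz1 ratio averages 0.196 in KO and 0.0994 in WT, and the Oat to Aldh18a1 ratios overlap.

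Around the members, 10 genes of glutamine and glutamate metabolism were tested, of which 1 rose and 4 fell, beside 29.6% and 27.4% of all genes tested. The list's median was -0.12 on the log2 scale. Gpt, an alanine aminotransferase, was at 5.10, 4.34 and 3.89 CPM in the libraries labelled Git2-knockout and 10.7, 12.8 and 11.3 CPM in WT (log2 fold change -1.39, edgeR adjusted p = 9.47e-08). This fall was larger than the change of any member and kept its direction and call in every alternative tried.

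The other genes of this list that passed had smaller changes or lower levels. Cad, which starts pyrimidine synthesis with the cytosolic carbamoyl phosphate synthetase, fell by 0.42 on the log2 scale. Gfpt1, which spends glutamine on hexosamines, rose by 0.27. It did not pass with the length trend removed (0.03, edgeR adjusted p = 0.399) or the GC trend removed (0.03, edgeR adjusted p = 0.583). When both trends were removed Gfpt1 passed downward, at -0.15 (edgeR adjusted p = 3.81e-04). Gls2, an enzyme of glutamine breakdown in liver, fell (-1.24) at low levels, 0.335 CPM in the libraries labelled Git2-knockout and 0.805 CPM in WT, and did not pass with DESeq2 or when replicate 1 of either group was left out. Got1, the cytosolic aspartate aminotransferase, fell by 0.16, a call that ended in 11 of 20 alternatives, among them leaving out replicate 2 of the libraries labelled Git2-knockout or WT replicate 2 or 3. Glud1, the glutamate dehydrogenase and one of the most abundant of this list, was at 141 CPM in the libraries labelled Git2-knockout and 135 CPM in WT and did not pass (edgeR adjusted p = 0.217).

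On the proline side, of 7 genes 3 fell and the other 4 did not pass, beside 57.0% of all genes tested that passed and 27.4% that fell. The list's median was 0.05 on the log2 scale. Prodh, the proline dehydrogenase that makes pyrroline-5-carboxylate, was at 91.2, 89.8 and 92.9 CPM in the libraries labelled Git2-knockout, against 127, 136 and 135 CPM in WT (log2 fold change -0.54, SE 0.04, edgeR adjusted p = 6.47e-08). Pepd, which frees proline from dipeptides, was at 182 ± 6.80 CPM in the libraries labelled Git2-knockout and 256 ± 8.12 CPM in WT (log2 fold change -0.50). Pycrl, also called Pycr3, a reductase that turns pyrroline-5-carboxylate into proline, was at 46.0 ± 2.49 CPM in the libraries labelled Git2-knockout and 64.9 ± 1.11 CPM in WT (log2 fold change -0.50, SD, n = 3 each). The falls of these 3 genes kept their call in every alternative tried. Summed over the list, levels were 323 to 339.7 CPM in the libraries labelled Git2-knockout and 451 to 477 CPM in WT.

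Of 13 genes tested that carry the pathway's intermediates 5 rose and 4 fell, for a median log2 fold change of 0.09. Over all genes tested 29.6% rose and 27.4% fell, so that neither direction is a result about the carriers as a set. Slc25a15, the mitochondrial ornithine and citrulline carrier, was at 289, 289 and 278 CPM in the libraries labelled Git2-knockout, against 234, 232 and 224 CPM in WT (log2 fold change 0.31, SE 0.04, edgeR adjusted p = 6.53e-06), and kept its call in every alternative tried. Slc25a13, the mitochondrial aspartate and glutamate carrier citrin, rose by 0.24, though not with the GC trend removed (0.09, edgeR adjusted p = 0.123). Slc38a2, a glutamine and neutral amino acid importer, rose to 334 ± 7.71 CPM in the libraries labelled Git2-knockout, against 229 ± 5.16 CPM in WT (log2 fold change 0.54). Slc6a19, the brush border carrier of neutral amino acids, rose by 0.17, and by 0.03 with both trends removed, where it did not pass. The light chain Slc7a7 (-0.24) and the heavy chain Slc3a2 (-0.31), which together export cationic amino acids at the basolateral side, fell. Slc7a7 did not pass on the log2(TPM + 1) scale (-0.05) or with both trends removed (-0.03). Slc3a1 (-0.28), the brush border heavy chain, and Slc1a5 (-0.34), a glutamine exchanger, fell too. Slc7a9, the brush border partner of Slc3a1, was at 387 CPM in the libraries labelled Git2-knockout and 365 CPM in WT and did not pass (edgeR adjusted p = 0.0734). Slc7a2 (0.30), a cationic amino acid importer, rose but lost its call without WT replicate 2, with DESeq2 and with the length trend removed, and stood at -0.03 with both trends removed.

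**Figure D5:**
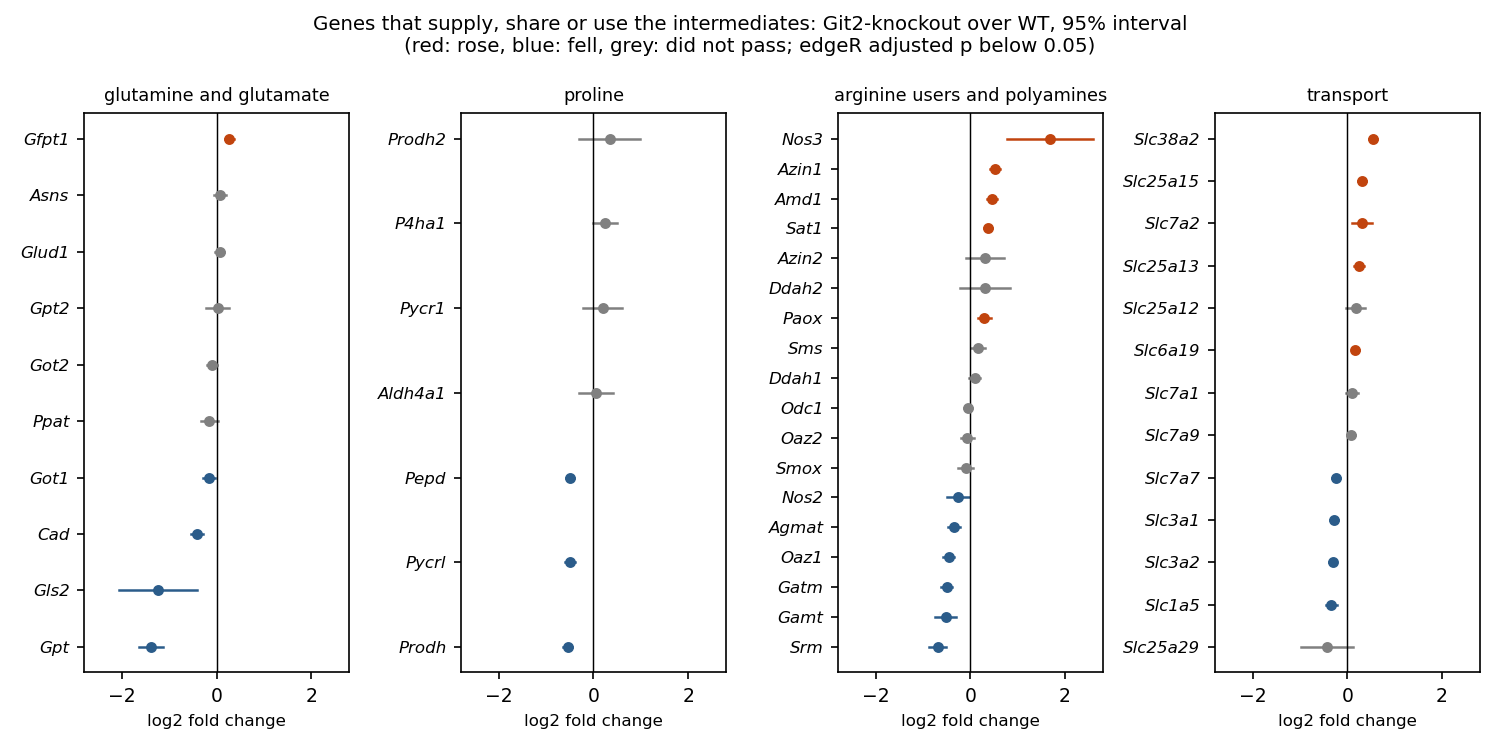
Log2 fold change, libraries labelled Git2-knockout over WT, with 95% intervals for the tested genes of 4 lists, coloured red where the gene rose, blue where it fell and grey where it did not pass. Gpt (-1.39) lies farther from 0 than any member of the arginine chain.

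Among 18 genes tested of arginine and ornithine use and of polyamine metabolism and its control, 5 rose and 6 fell. These counts lay near the 29.6% and 27.4% of all genes tested, and the list's median log2 fold change was 0.02. Odc1, the ornithine decarboxylase that starts polyamine synthesis, was at 247 CPM in the libraries labelled Git2-knockout and 256 CPM in WT and did not pass (edgeR adjusted p = 0.318). Azin1, which protects ornithine decarboxylase from antizyme, was at 249, 222 and 247 CPM in the libraries labelled Git2-knockout, against 168, 170 and 164 CPM in WT (log2 fold change 0.52). Oaz1, the antizyme, was at 275, 235 and 246 CPM in the libraries labelled Git2-knockout, against 331, 345 and 364 CPM in WT (log2 fold change -0.46). The Azin1 to Oaz1 ratio in TPM averaged 0.196 ± 0.00951 in the libraries labelled Git2-knockout and 0.0994 ± 0.00517 in WT (SD, n = 3 each). The pair differs in transcript length (4979 and 1026 bases) and GC content (42.9% and 57.5%), and with both trends removed neither gene passed (0.10 and -0.05).

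Amd1 (0.45), which makes the aminopropyl donor of polyamines, Sat1 (0.37), which acetylates spermidine and spermine, and Paox (0.30), which oxidises the products, rose, and Srm, the spermidine synthase, fell (-0.70), each with the same call in every alternative tried. Gatm (-0.50) and Gamt (-0.52), the enzymes of creatine synthesis from arginine, fell, as did Agmat (-0.35), named for the hydrolysis of agmatine, which lay at 0.01 with both trends removed. Gamt did not pass with both trends removed (-0.06). Nos3, the nitric oxide synthase of endothelium, rose (1.68) at low levels, 0.924 ± 0.430 CPM in the libraries labelled Git2-knockout and 0.285 ± 0.081 CPM in WT, beside the endothelial list's median of 1.12. Nos2, the inducible nitric oxide synthase, fell (-0.27), a call lost in 14 of 20 alternatives, among them leaving out any library but replicate 1 of those labelled Git2-knockout.

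Markers of the suckling and weaned states of enterocytes were mixed beside the fall of Ass1, which is itself known as a gene of the suckling gut. Of 8 genes of suckling enterocytes 3 rose and 4 fell, beside 29.6% and 27.4% of all genes tested, with a median log2 fold change of -0.13. Lactase (Lct, -0.59) and the neonatal Fc receptor (Fcgrt, -0.41) fell, and Prdm1 (0.51), the repressor that maintains the suckling programme, and the endocytic adaptor Dab2 (0.30) rose. Of 5 genes of weaned enterocytes 2 rose and 3 fell. Sucrase-isomaltase (Sis), which comes up at weaning, was at 24.2 CPM in the libraries labelled Git2-knockout and 12.8 CPM in WT (log2 fold change 0.92), while trehalase (Treh, -0.63) fell. A link between these genes and the arginine chain was not tested.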

How the data were processed

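Gene symbols, estimated read counts, FPKM and TPM came from 1 deposited table. The estimated counts were made by the authors; RSEM, HISAT, Bowtie2 and the GRCm39 build are named, without versions, per the submitters' processing notes. FPKM and TPM, deposited per the file headers, are scaled by library and by transcript length. Neither annotation nor strand setting is stated. Groups and replicate numbers came from the sample titles.

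Estimated counts, 58.9% to 69.2% of them not whole, were rounded and fitted in R 4.3.3 with edgeR 4.0.16 (filterByExpr, TMM, robust quasi-likelihood test, two-sided, Benjamini-Hochberg over all 13558 genes tested, threshold 0.05). CPM are scaled by TMM factors. Standard errors are the log2 fold change over the square root of F. Replicates differed by more than counting noise (chi-square per degree of freedom 1.59 to 6.79). This does not show whether each is its own animal or culture. Each library was counted as a replicate. Alternatives were other scalings, filters and fits, DESeq2 1.42.0, limma 3.58.1 (limma-trend) on log2(TPM + 1) and log2(TPM + 0.1), the replicate number as a block, each library left out, and loess removal (span 0.5) of the length trend, the GC trend or both, the last chosen after seeing the data. Transcript lengths were implied by counts and FPKM of at least 0.5 (93.1% of tested genes), and GC content came from GENCODE transcripts of GRCm38 (96.5%). The main edgeR fit was tested on simulated counts, and the trend removals and other alternatives were not.

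The 10 members, the 4 pathway lists and the marker lists were chosen with earlier results of these data known. The rule names all members, and from the pathway lists the genes that passed or were most abundant. Other genes were named after their values were seen. In the pathway lists, 2 genes are not reported here and are left out of the lists' counts, medians and sums; Ahsg of the liver list was not used here. Promoter sequences are RefSeq's, GRCm38.p6, and no coordinates of the authors' build are given.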

Additional observations from a re-analysis of the deposited data

How the results depend on the processing

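All 4 members that passed kept their direction and call with RLE scaling, library totals, DESeq2, the unfiltered table, a minimum of 5 CPM in 3 libraries, the non-robust fit and the replicate block. None of the 4 kept its call in all 20 alternatives, whereas 16 of the 28 pathway genes that passed did. The number of members called was 7 on both log2(TPM + 1) and log2(TPM + 0.1), against 4, and 3 to 6 with a library left out. On log2(TPM + 1), where 75.1% of calls were upward against 51.9%, Asl (0.10), Otc (0.13) and Odc1 (0.11) turned upward, and on log2(TPM + 0.1) Asl (0.10), Otc (0.13) and Odc1 (0.11) did too. Once the length trend was removed Asl stood at 0.078, Cps1 at -0.091 and Slc7a1 at -0.18, and the replicate block with that trend removed gave 0.0786 for Asl, -0.0909 for Cps1 and -0.18 for Slc7a1. Once the GC trend was removed Cps1 stood at -0.044. Removal of both trends, an alternative chosen after seeing the data, gave 0.22 for Asl, -0.20 for Cps1, -0.15 for Gfpt1, 0.0085 for Agmat and -0.026 for Slc7a2. The causes were not tested. With upper quartile scaling Cps1 did not pass (0.08). Over all genes 7725 passed, and 5890 with both trends removed. Deviations of same-numbered libraries correlated weakly (0.04, -0.001 and 0.05). Replicates 1 and 3 of the libraries labelled Git2-knockout correlated best with their own number, and replicate 2 did not. Correlations this weak cannot decide whether the numbers pair the libraries. The replicate block called 7441 genes, 4 members and 27 pathway genes, against 28. The 6 ratios kept their direction with any library left out, though for Oat to Aldh18a1 the groups overlapped and the difference was small beside the spread. Arg1 and Arg2, with 3 to 15 reads per library, limit what this depth can show.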
